A study of Mus musculus with 30 samples.

Results

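The 80 genes described here encode proteins of the cytosolic ribosome. They were chosen by name: protein-coding rows of the count table whose mouse symbol starts with Rpl or Rps and a digit, or is Rplp0, Rplp1, Rplp2 or Rpsa. Rows named as pseudogenes, the S6 kinases, Rps19bp1 and Rpl7l1 were left out, and a mean of at least 5 CPM (reads of the gene relative to the library total) over the 30 libraries was required. This left 80 of 55487 rows, 48 of the large subunit (Rpl) and 32 of the small subunit (Rps), and all 80 passed the low-count filter in both cohorts. The name rule found 84 rows, of which 4 lay under the limit. Of these, Rps10 had a mean of 2.61 CPM, Rpl36al 0.444, Rpl39l 0.148 and Rpl10l no count, while the lowest gene inside the limit was Rpl24 at 12.1 CPM. Exons of Rps10 and Rpl36al overlap another gene on the same strand (RPS10-NUDT3 and Gm49383), which makes their low levels less certain. Rpl3 and Rps6, which mark the group, were read in every library, at 114 to 544 and 185 to 368 CPM.

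The cytosolic ribosome joins a small subunit, which reads the mRNA, to a large subunit, which makes the peptide bond. Most ribosomal proteins are present in a single copy per particle, and many of the mRNAs begin with a pyrimidine tract that puts their translation under the control of mTORC1. In heart and skeletal muscle the large subunit protein Rpl3 has a muscle-specific paralog, Rpl3l, which takes its place in ribosomes of mature muscle cells.

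The 30 libraries hold RNA of mouse hearts, taken 8 weeks after surgery. In TAC (transverse aortic constriction) a clip constricts the aorta and the heart pumps against a higher load, and sham mice were operated on without it. In the floxed cohort, all mice are floxed at Cpt1a or carry its cardiac knockout: FF_sham and FF_TAC are floxed controls and KO_sham and KO_TAC are cardiac-specific Cpt1a knockouts, with 4 libraries each. The labels do not name the promoter that drives the knockout. In the other cohort, C57Bl/6 mice received PBS (PBS_sham and PBS_TAC, 3 libraries each) or AAV9.Cpt1a (AAV_sham and AAV_TAC, 4 libraries each), in which the troponin T promoter of heart muscle drives Cpt1a. Ages and sexes are not given in the sources used here. The KO_TAC titles read "TAC Sham" and their genotype and treatment fields give knockout and TAC, which were used. Labels do not say that libraries came from separate animals, so p-values measure the spread between these samples.

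Libraries held 14839758 to 22070373 counts. Cpt1a ran from 37.8 to 52.7 CPM in FF_sham and 20.3 to 46.3 in KO_sham, and from 16.2 to 48.9 in FF_TAC and 11.1 to 19.6 in KO_TAC, so its ranges overlapped in both genotype comparisons. It also overlapped between AAV_sham (56.3 to 88.4) and PBS_sham (37.4 to 68.0), and between AAV_TAC (44.8 to 62.7) and PBS_TAC (40.3 to 61.6). Summed haemoglobin transcripts were under 100 CPM in 7 libraries (FF_TAC 2 and 3, KO_sham 2 and all of KO_TAC) and 294 to 943 CPM in the other 23. Fos divided the libraries in the same way, at 40.0 to 692 CPM in these 7 and 1.04 to 36.6 CPM in the other 23. The library PBS_sham 3 stood apart: its summed cardiomyocyte markers were 29990 CPM, against 44526 to 58677 in all other libraries, and its endothelial markers 2078 CPM, against 435 to 983. Cardiomyocyte markers (Myh6, Tnnt2, Actc1, Ryr2 and Myl2) led in every group. Of 4 skeletal muscle markers, Myh4 was at 0 in 29 libraries and Mybpc1 under 1 CPM in all 30, whereas Ckm (418 to 1799 CPM) and Acta1 (44.6 to 8357 CPM), which heart muscle also expresses, were read in all. Acta1 was higher in KO_TAC than in KO_sham (log2 fold change 3.45, SE 0.76, adjusted p = 0.00666 by edgeR). In bulk tissue, fewer cells of a type and less RNA per cell cannot be told apart.

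The start sites of these genes were set beside those of all genes. RefSeq promoter windows, from 250 bases before to 50 after the annotated start on GRCm38.p6, matched 60 of the 80 genes with 72 windows. Rpl3, Rps27a and Rplp1 were among the genes without a window. A terminal pyrimidine start, defined as C at position 1 followed by at least 4 bases that are C or T, was present in 13 of the 72 windows (18.1%) and in 2.51% of all 32851 windows. The following 30-base windows run from 15 bases before the start to 15 after it, with the pyrimidine run from position 1 in capitals. The first 5 hold such a start, and the last 3 (Rpl3l and genes that stand out below) do not.

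Rps6 chr4:86857353-86857382 (minus strand): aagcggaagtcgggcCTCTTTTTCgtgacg
Rps27 chr3:90213634-90213663 (minus strand): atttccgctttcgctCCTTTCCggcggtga
Rps27rt chr9:114982725-114982754 (minus strand): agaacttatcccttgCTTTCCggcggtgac
Rpl35a chr16:33056467-33056496 (plus strand): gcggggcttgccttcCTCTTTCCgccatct
Rpl38 chr11:114668565-114668594 (plus strand): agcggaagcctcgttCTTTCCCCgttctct
Rpl3l chr17:24727811-24727840 (plus strand): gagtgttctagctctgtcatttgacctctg
Rps12 chr10:23787195-23787224 (minus strand): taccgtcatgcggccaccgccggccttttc
Rps28 chr17:33824548-33824577 (minus strand): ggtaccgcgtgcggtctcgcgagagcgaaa

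Annotated starts can differ from the starts used in heart by a few bases. With this in mind, a run of at least 7 bases that starts with C and holds only C or T, anywhere within 25 bases of the start, was also counted: 52.8% of the windows of these genes had one, and 22.8% of all windows. The motif CCGGAAG, searched on both strands, was in 34.7% of their windows and 8.86% of all. TATAAA was in 9.72% and 13.6%, and CAGCTG, a site of the E-box type, in 4.17% and 16.3%. Rpl3l was among the 3 genes with CAGCTG and had no CCGGAAG, whereas Rps6 had CCGGAAG. Their 250 bases upstream are printed with CAGCTG (Rpl3l) and CCGGAAG (Rps6) in capitals. A match describes the letters of the window and is not a site.

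Rpl3l chr17:24727576-24727825 (plus strand): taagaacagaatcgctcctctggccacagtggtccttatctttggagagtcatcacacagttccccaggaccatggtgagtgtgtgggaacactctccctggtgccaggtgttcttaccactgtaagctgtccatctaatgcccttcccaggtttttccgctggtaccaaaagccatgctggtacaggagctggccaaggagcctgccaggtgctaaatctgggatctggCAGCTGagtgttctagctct
Rps6 chr4:86857368-86857617 (minus strand): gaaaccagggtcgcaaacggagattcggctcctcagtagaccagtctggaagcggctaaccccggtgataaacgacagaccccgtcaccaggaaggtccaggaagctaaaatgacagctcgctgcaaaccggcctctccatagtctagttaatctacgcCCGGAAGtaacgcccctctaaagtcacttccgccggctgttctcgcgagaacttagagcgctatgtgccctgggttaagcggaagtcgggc

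Rpl3 lies on chromosome 15 (80077791 to 80091868, minus strand) and Rpl3l on chromosome 17 (24727820 to 24736143, plus strand) of GRCm38. Their coding sequences, 1212 and 1224 bases in GENCODE M21, were 74.4% identical over 1209 aligned bases, and the longest identical run was 22 bases. No 100-base stretch of an Rpl3l transcript occurred in a transcript of another gene. For Rpl3, 59.9% of the 100-base stretches did, in 7 genes that are all annotated as pseudogenes. The first 90 coding bases follow, with the 21 positions at which the 2 genes differ in capitals.

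Rpl3: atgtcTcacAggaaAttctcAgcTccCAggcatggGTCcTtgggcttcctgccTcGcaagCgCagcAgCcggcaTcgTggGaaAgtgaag
Rpl3l: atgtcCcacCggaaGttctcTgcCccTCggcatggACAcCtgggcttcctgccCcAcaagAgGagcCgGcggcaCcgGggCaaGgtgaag

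Per kb of annotated exon, the most abundant genes over all libraries were Rplp1, an acidic stalk protein, at a mean level of 816 CPM per kb, Rps15 at 534 and Rpl36 at 459. The least abundant were Rpl13a at 6.78, Rpl22l1 at 8.53 and Rpl24 at 11.8. Counted in this way, subunits of 1 particle had read levels that differed widely. Many of these genes have processed copies: the median share of 100-base stretches also found in another gene was 28.5%, and it reached 89.5% in Rps27rt and 83.6% in both Rpl36a and Rps6. How reads with several matches were counted is not given in the sources used here, so levels are less certain for such genes. Exons of 18 of the 80 overlap a gene on the opposite strand, Rps27a (Clhc1), Rps28 (Kank3), Rpl12 and Rps2 among them, and the strand setting of the counting is not given either. On either strand, exons of 37 of the 80 overlap another gene. Rpl13a and Rpl24, among the lowest per kb, overlap a gene on the same strand (Gm45713 and Gm28037). How reads shared by overlapping genes were counted is not given, so these low levels are less certain.

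Summed over the 80 genes, ribosomal protein transcripts made up 1.56, 1.48, 1.40 and 1.31% of all counts in FF_sham libraries 1 to 4. The shares were 1.55, 1.84, 1.57 and 1.44% in FF_TAC, 1.71, 1.42, 1.59 and 1.57% in KO_sham, and 1.84, 2.92, 2.56 and 1.75% in KO_TAC. KO_TAC 2 and 3 were higher than every other library of the study, while KO_TAC 1 and 4 lay just above or inside the range of FF_TAC. Of the 80 genes, 75 had their highest floxed-cohort level in KO_TAC 2. In the AAV9 cohort the shares were 1.58, 1.62 and 2.33% in PBS_sham and 1.31, 1.46 and 1.66% in PBS_TAC. They were 1.37, 1.51, 1.30 and 1.24% in AAV_sham and 1.42, 1.45, 1.39 and 1.501% in AAV_TAC. There PBS_sham 3, the library with few cardiomyocyte transcripts, was the highest, and the other 13 libraries lay between 1.24 and 1.66%.

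**Figure D1:**
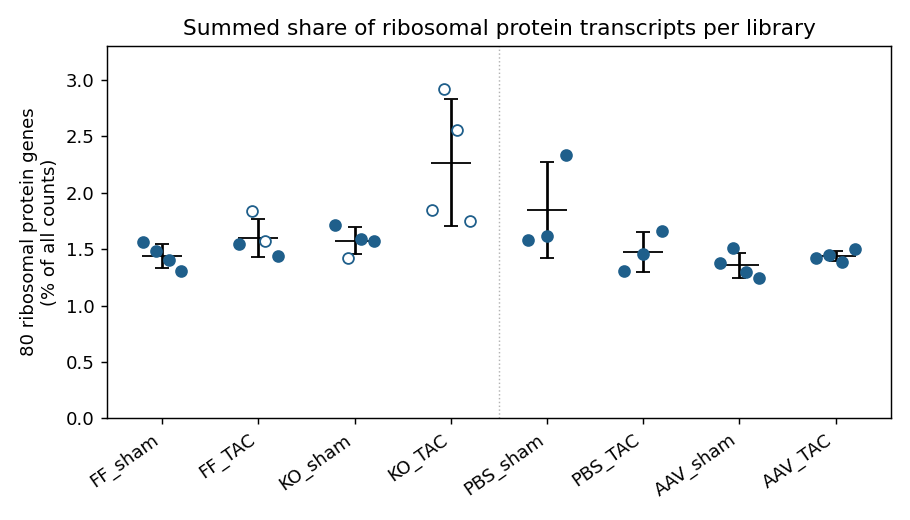
Summed counts of the 80 ribosomal protein genes as a percentage of all counts (y axis) in each library (points) of the 8 groups (x axis), with the group mean and SD (bars). Open points are the 7 libraries with summed haemoglobin under 100 CPM, and KO_TAC 2 and 3 are the highest, at 2.92 and 2.56%.

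The comparison of KO_TAC with KO_sham sets TAC against sham in the knockout heart. Ribosomal protein transcripts rose there across both subunits while the muscle paralog Rpl3l fell. All KO_TAC libraries but, of KO_sham, only library 2 had summed haemoglobin under 100 CPM. In edgeR's quasi-likelihood fit, after Benjamini-Hochberg adjustment over all 15596 genes tested, 68 of the 80 were higher and 1 was lower, with 14.3% of all genes tested called higher and 11.5% called lower. The 68 included 40 of 48 large subunit and 28 of 32 small subunit genes. The median log2 fold change over the 80 was 0.65, with quartiles of 0.58 and 0.75, against a median of 0.02 over all genes tested. The 11 that were not called ran from -0.01 (Rps2) to 1.02 (Rpl24). Library ranges did not overlap for 38 of the 68 that rose, with 11.1% of all genes separated in that direction.

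The largest rise was that of Rpl3, whose protein helps to shape the peptidyl transferase centre. Its level was 167, 162, 168 and 190 CPM in KO_sham and 302, 544, 521 and 293 CPM in KO_TAC. All 4 KO_TAC libraries lay above all KO_sham libraries, and KO_TAC 2 and 3 were the highest. The log2 fold change was 1.27 (SE 0.19, adjusted p = 0.0012 by edgeR's quasi-likelihood test). Rps27a, which is made as a fusion to ubiquitin, was at 141, 68.0, 108 and 125 CPM in KO_sham and 167, 424, 295 and 160 CPM in KO_TAC. Its groups were also separate, with KO_sham 2 the lowest, and the log2 fold change was 1.24 (SE 0.29, adjusted p = 0.0092 by edgeR). Rpl3 and Rps27a were the only members of the 80 whose 4 KO_TAC libraries were above all 12 other floxed libraries, with 3.79% of all genes tested in that position.

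Of the small subunit proteins, Rps28 was at 97.8, 84.9, 97.3 and 81.1 CPM in KO_sham and 98.0, 279, 201 and 120 CPM in KO_TAC. The groups were separate by less than 1 CPM, between KO_TAC 1 and the highest KO_sham library. Rps12 was at 109, 97.2, 98.8 and 103 CPM in KO_sham and 140, 273, 237 and 137 CPM in KO_TAC, with no overlap. Their log2 fold changes were 0.95 (SE 0.25, adjusted p = 0.0152) and 0.95 (SE 0.20, adjusted p = 0.00525) by edgeR. The stalk proteins P1, P2 and P0 recruit elongation factors to the ribosome. Rplp1 was at 399, 329, 382 and 355 CPM in KO_sham and 416, 1017, 802 and 488 CPM in KO_TAC, with a log2 fold change of 0.89 (SE 0.23, adjusted p = 0.0126 by edgeR). Rplp2 also rose, by 0.86 on the log2 scale, whereas Rplp0 was not called (0.33, SE 0.12, adjusted p = 0.0643 by edgeR). Of Rpl5 and Rpl11, which carry the 5S rRNA, Rpl5 rose by 0.56 and Rpl11, at 0.55, was not called.

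Rps6, the substrate of the S6 kinases, changed less than most. It was at 228, 237, 232 and 211 CPM in KO_sham and 243, 368, 332 and 252 CPM in KO_TAC. The groups did not overlap, although KO_TAC 1 and 4 lay close to KO_sham, and the log2 fold change was 0.40 (SE 0.14, adjusted p = 0.0479 by edgeR). The call for Rps6 held when either of 2 libraries was left out and was lost for each of the other 6. At the low end stood Rps2, with 579, 510, 566 and 489 CPM in KO_sham and 471, 565, 564 and 531 CPM in KO_TAC. Its ranges coincided, with a log2 fold change of -0.01 (SE 0.10, adjusted p = 0.956 by edgeR).

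**Figure D2:**
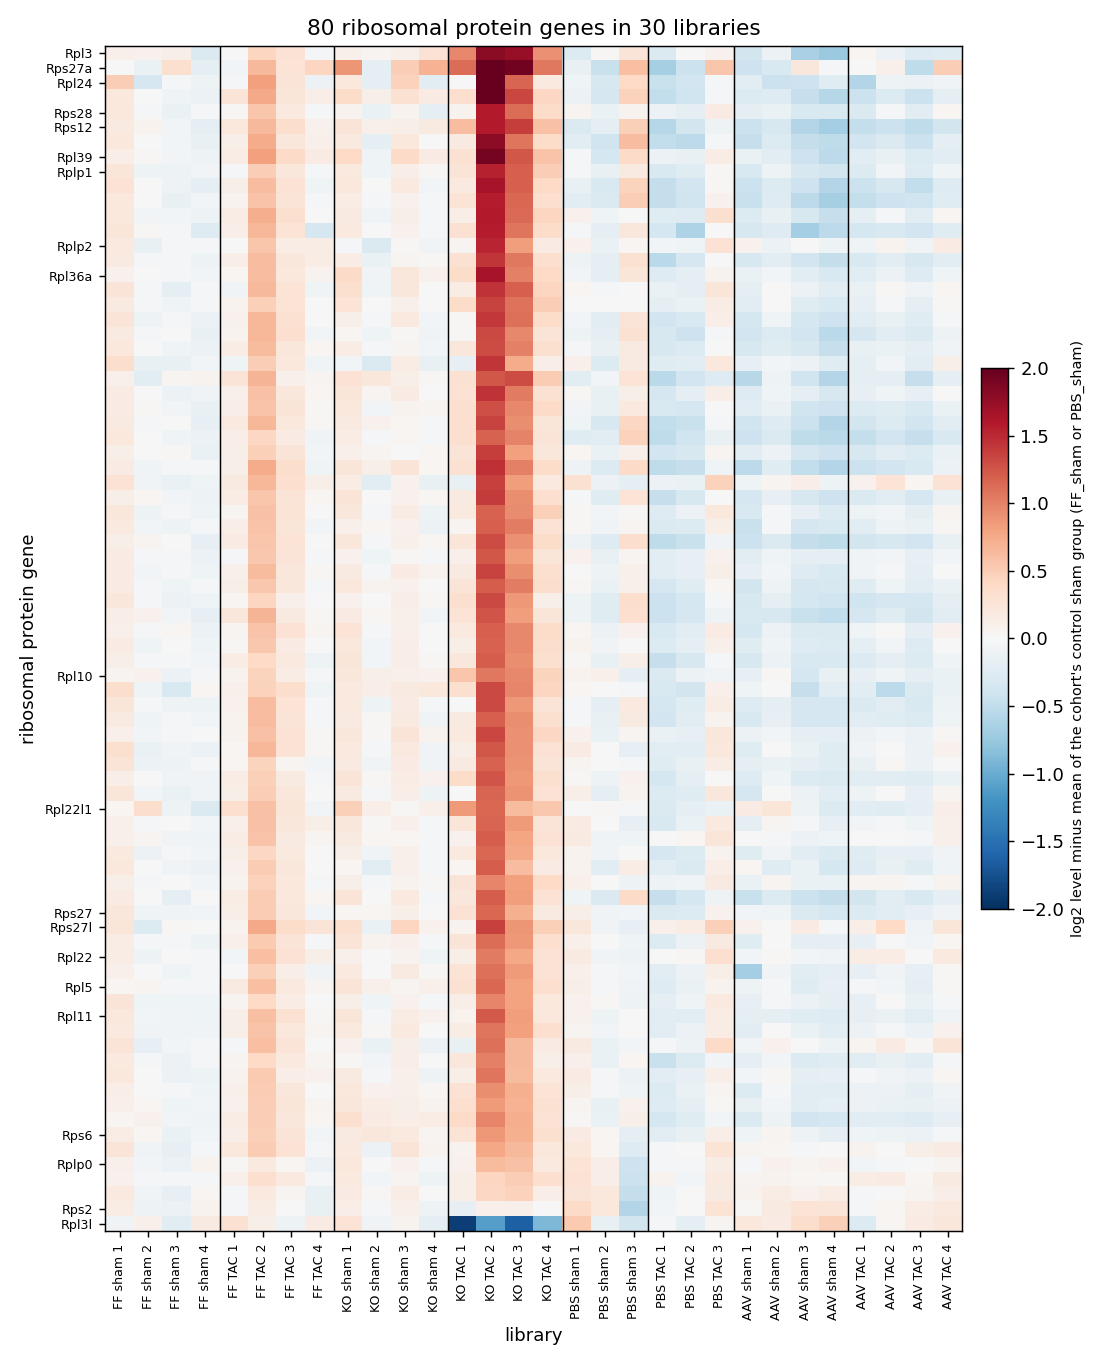
Level of each of the 80 genes (rows, ordered by the log2 fold change of KO_TAC against KO_sham) in each of the 30 libraries (columns), as log2 level minus the mean of FF_sham or PBS_sham, whichever is of the same cohort, with 20 genes labelled. Red columns stand at KO_TAC 2 and 3 and, more faintly, at FF_TAC 2, and Rpl3l in the last row is blue in all 4 KO_TAC libraries.

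The rise was not even over the 4 KO_TAC libraries, and the number of calls depended on single libraries. It was 13 of 80 without KO_TAC 2, 13 without KO_TAC 3, 24, 28 and 14 without KO_sham 2, 3 or 4, and 78 without KO_TAC 1. The median log2 fold change over the 80 was 0.42 without KO_TAC 2. With a term for the haemoglobin-low libraries, Rpl3 (log2 fold change 1.14) and Rpl3l (-1.22) were the 2 members still called. All 4 KO_TAC libraries but only KO_sham 2 of that group are haemoglobin-low, so that term and the group largely cannot be told apart. Without the haemoglobin-low libraries outside KO_TAC, 30 rose and 1 fell.

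Several other values moved with the rise, and their part in it was not tested. Short transcripts of other genes (mRNA up to 1000 bases, 2561 genes) made up 11.4 and 9.47% of counts in KO_TAC 2 and 3, 7.24 and 6.98% in KO_TAC 1 and 4, and 5.86 to 8.07% in the other floxed libraries. Mitochondrially encoded transcripts made up 12.1 to 18.7% in KO_TAC and 20.9 to 26.0% in the other floxed libraries, with the lowest values in KO_TAC 2 and 3. With mitochondrial genes left out before scaling, the same 69 members were called. Summed atrial markers (Myl7, Myl4, Sln and Nppa) were 4461 to 19436 CPM in KO_TAC and 15.3 to 5539 CPM in the other floxed libraries, and Sln was at 0 in 9 of the 30 libraries. Nppa, which ventricle also makes under load, carried most of that sum, at 4458 to 9869 CPM in KO_TAC and 13.7 to 2581 CPM in the others, and was the 1 of the 4 called higher. Myl7, Myl4 and Sln were high in KO_TAC 1 alone of its group, with Myl7 at 3549.9 CPM there and 0.674, 0.599 and 0.118 CPM in KO_TAC 2, 3 and 4. Summed fibroblast markers were 1245 to 1527 CPM in KO_TAC, above 588 to 971 in the others, and endothelial markers 435 to 733 CPM, against 612 to 962. Dcn (mean 601 CPM in KO_sham and 977 in KO_TAC) and Col1a1 (151 and 252) carried most of the fibroblast rise. Lum (89.3 and 93.7) and Tcf21 (11.3 and 12.7) changed little, and Pdgfra was lower in KO_TAC (36.1 and 26.7). Against KO_sham, edgeR called 2 of the 5 fibroblast markers higher and 4 of the 5 endothelial markers lower.

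Sorted by annotated mRNA length, other genes that averaged 5 CPM or more showed a gradient in KO_TAC compared with KO_sham. Their median log2 fold change was 0.42 for mRNAs up to 600 bases (76 genes), 0.41 over 600 and up to 900, 0.28 up to 1300, 0.20 up to 2000 and -0.05 above 2000 (7695 genes). Ribosomal protein genes stood at 0.68, 0.68, 0.64, 0.62 and 0.58 in the same bins, with 20, 22, 23, 10 and 5 genes. Their median was thus higher than that of other genes in each bin and changed little over these bins. Length was taken from 1 annotated coding transcript per gene, which can differ from the mRNA present in heart. Rps15a (5179 bases), Rps20 (3706) and Rpl18 (2989) fell in the last bin in this way. The bins thus describe annotated lengths, and the part of length in the rise was not tested.

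**Figure D3:**
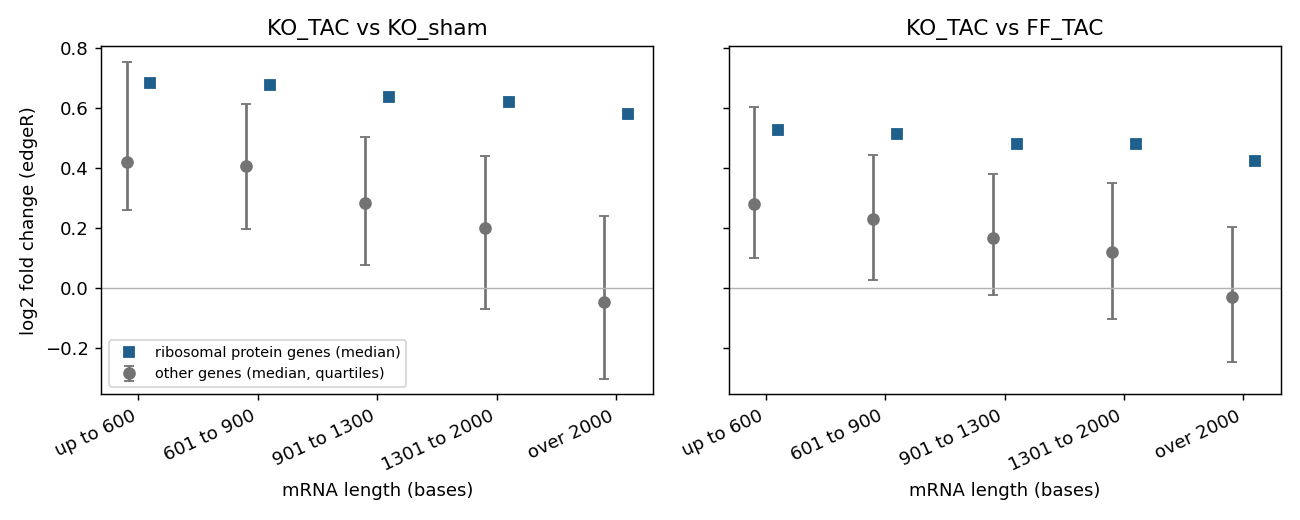
Median log2 fold change (y axis) of ribosomal protein genes (squares) and of other genes (circles, with quartiles) by annotated mRNA length in bases (x axis), for KO_TAC against KO_sham (left) and against FF_TAC (right). Other genes go from 0.42 to -0.05 on the left, while ribosomal protein genes stay between 0.58 and 0.68.

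Sequence features were set beside the fold changes of KO_TAC against KO_sham. The 13 genes with a terminal pyrimidine start all rose, with a median of 0.65, as did 39 of the 47 with a window but no such start, with a median of 0.64. With CCGGAAG, 21 of 24 genes rose (median 0.64), and without it 31 of 36 (median 0.64). Genes with under 10% of their 100-base stretches in other genes had a median of 0.64 (19 genes), those with 10 to 50% had 0.68 (40 genes) and those with 50% or more had 0.64 (21 genes). These medians are descriptions, with no test.

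Rpl3l was the 1 member that fell in KO_TAC compared with KO_sham. It was at 299, 235, 258 and 218 CPM in KO_sham and 67.3, 115, 79.3 and 132 CPM in KO_TAC. No library of KO_TAC reached the lowest KO_sham library, and the log2 fold change was -1.36 (SE 0.19, adjusted p = 0.000713 by edgeR's quasi-likelihood test). Rpl3l in all 4 KO_TAC libraries was below all 12 other floxed libraries, as were 3.78% of all genes tested. Against KO_sham alone, 12% of all genes were separated downward. When each of the 8 libraries was left out in turn, both calls held, with log2 fold changes of 1.11 to 1.40 for Rpl3 and -1.55 to -1.23 for Rpl3l.

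The ratio of Rpl3l to Rpl3 within a library does not depend on scaling between libraries. Its log2 was 0.50, 0.69, 0.33 and 1.13 in FF_sham, 0.96, 0.35, 0.27 and 0.86 in FF_TAC and 0.84, 0.54, 0.62 and 0.20 in KO_sham. In KO_TAC it was -2.17, -2.25, -2.72 and -1.15. Rpl3l thus gave more counts than Rpl3 in each of 12 floxed libraries and fewer in the 4 of KO_TAC. Of the counts of both genes, Rpl3l made up 18.2% (Wilson 95% interval 17.4 to 19.1), 17.4% (16.6 to 18.2), 13.2% (12.6 to 13.9) and 31.0% (29.95 to 32.1) in KO_TAC 1 to 4. These intervals cover counting error only. In the other floxed libraries the share was 53.4 to 68.7%. For Rpl3, 59.9% of the 100-base stretches also occur in pseudogenes, and for Rpl3l none. How such reads were counted is not given, so which gene gave more is less certain than differences between groups.

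The mean log2 ratio in KO_TAC minus that in KO_sham was -2.62 (exact permutation test, two-sided, p = 0.0286, the smallest that 4 against 4 allows, 0.114 after adjustment over 8 comparisons). Against FF_TAC the difference was -2.68, with the same exact p of 0.0286 and adjusted p of 0.114. The libraries of KO_TAC did not overlap either group. For TAC in floxed mice the difference was -0.05 (exact permutation p = 0.857), and for knockout without TAC -0.12 (exact permutation p = 0.629), both within the spread between libraries. The difference between the 2 TAC effects, knockout minus floxed, was -2.57 (exact permutation of genotype within surgery over 4900 relabellings, p = 0.02, 0.04 adjusted over the 2 cohorts). This test was added after the ratio had been seen. Its relabelling assumes no genotype effect under either surgery, so a small p can come from KO_TAC against FF_TAC alone. It does not by itself test whether the 2 TAC effects are equal.

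**Figure D4:**
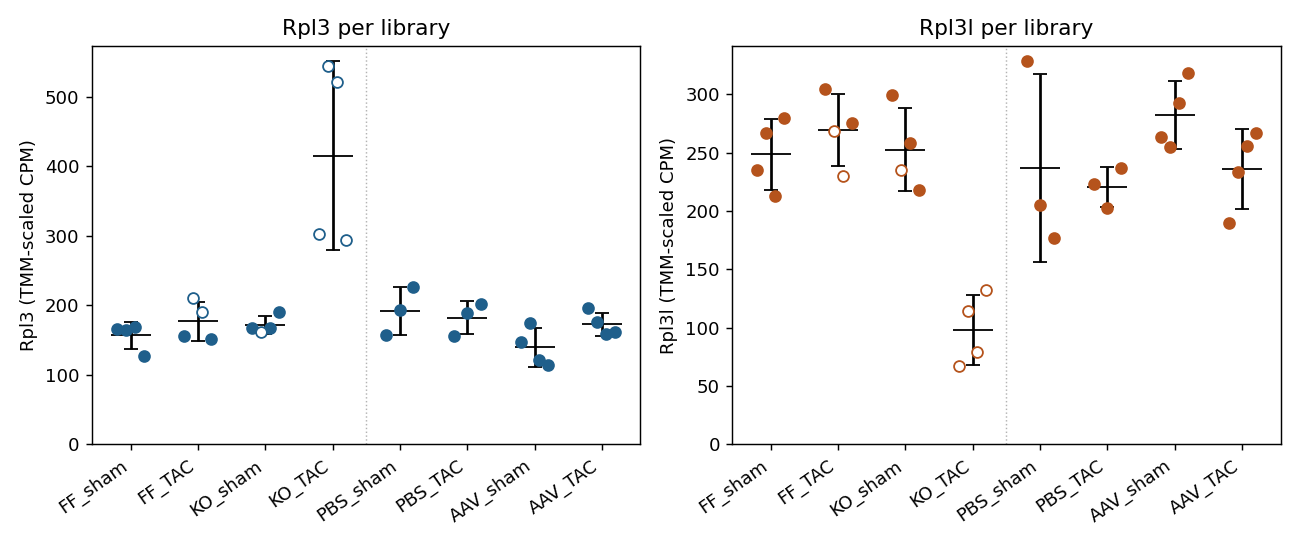
TMM-scaled CPM (y axes) of Rpl3 (left) and its muscle paralog Rpl3l (right) in each library of the 8 groups (x axes), with mean and SD. Open points are haemoglobin-low libraries. KO_TAC has Rpl3 at 293 to 544 CPM and Rpl3l at 67.3 to 132 CPM, beyond the 12 other floxed libraries on both sides.

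Elongation factor 1 alpha also has a muscle form, Eef1a2, which was not called. Its log2 fold change in KO_TAC compared with KO_sham was 0.29 (SE 0.17, adjusted p = 0.204 by edgeR), while that of the common form Eef1a1 was 0.77 (SE 0.19, adjusted p = 0.0118 by edgeR).

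Other paralog pairs were compared in the same groups. Rpl22 was at 137, 128, 135 and 121 CPM in KO_sham and 139, 264, 219 and 156 CPM in KO_TAC, and Rpl22l1 at 19.7, 15.5, 14.4 and 15.2 against 25.5, 31.4, 22.1 and 20.5 CPM. Both pairs of ranges were separate, with log2 fold changes of 0.58 (SE 0.18) and 0.62 (SE 0.17), and both were called. Rps27 (0.59, SE 0.18) was called and Rps27l (0.58, SE 0.23, adjusted p = 0.0703 by edgeR) was not. Rpl36a (0.79), Rpl39 (0.92) and Rpl10 (0.64) rose, and their copies Rpl36al, Rpl39l and Rpl10l were under 1 CPM in every library. Exons of Rpl36al overlap Gm49383 on the same strand, so its low level is less certain. Rpl10, which joins the large subunit late in its assembly, was at 194, 180, 176 and 175 CPM in KO_sham and 244, 342, 320 and 225 CPM in KO_TAC, with no overlap. When each of the 8 libraries was left out in turn, the call held in 2 fits each for Rpl22 and Rps27. It held in 4 fits each for Rpl36a and Rpl39, 5 for Rpl22l1 and 8 for Rpl10. Without KO_TAC 2, Rpl10 was the only one of these still called.

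Compared with FF_TAC, which asks what the knockout adds under overload, fewer members passed the test. In KO_TAC, 8 of 80 were higher and Rpl3l was lower, with 7.53% of all genes called higher and 6.8% called lower. The median over the 80 was 0.51, against 0.04 over all genes tested. Above 0 were 79 of 80, against 53.4% of all genes. Without KO_TAC 2 the median was 0.27. Among the 8 were Rps27a, Rpl3, Rplp1, Rps12, Rpl12, Rpl10 and Rps16. All 9 were also called against KO_sham, which is 13.0% of the 69 called there. Both comparisons share the KO_TAC libraries.

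Rpl3 in FF_TAC was at 156, 210, 190 and 152 CPM, all below the lowest KO_TAC library. The log2 fold change was 1.23 (SE 0.19, adjusted p = 0.00158 by edgeR's quasi-likelihood test). Rps27a in FF_TAC was at 73.9, 120, 92.7 and 104 CPM, and its log2 fold change was 1.42 (SE 0.29, adjusted p = 0.0058 by edgeR). Rpl3 and Rps27a were the 2 members separated upward here, with 6.76% of all genes so separated. Rpl3l was at 305, 268, 230 and 275 CPM in FF_TAC, all above KO_TAC, with a log2 fold change of -1.46 (SE 0.19, adjusted p = 0.000536 by edgeR). Rps6 was not called (0.35, SE 0.14, adjusted p = 0.103 by edgeR), and FF_TAC 2, at 281 CPM, lay inside the KO_TAC range.

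This count also hung on few libraries and on the scaling. It was 67 called without KO_TAC 1, 46 without KO_TAC 4, 37 without FF_TAC 2 and 4 without KO_TAC 2, KO_TAC 3, FF_TAC 1 or FF_TAC 4, and 55 with library totals alone. Rpl3, Rpl3l, Rps27a and Rpl10 were called in each of the 8 fits that left out 1 library. With the haemoglobin-low libraries alone (KO_TAC against FF_TAC 2 and 3) no member was called, nor was any gene at all by edgeR, and the log2 fold changes were 1.02 for Rpl3 and -1.37 for Rpl3l.

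**Figure D5:**
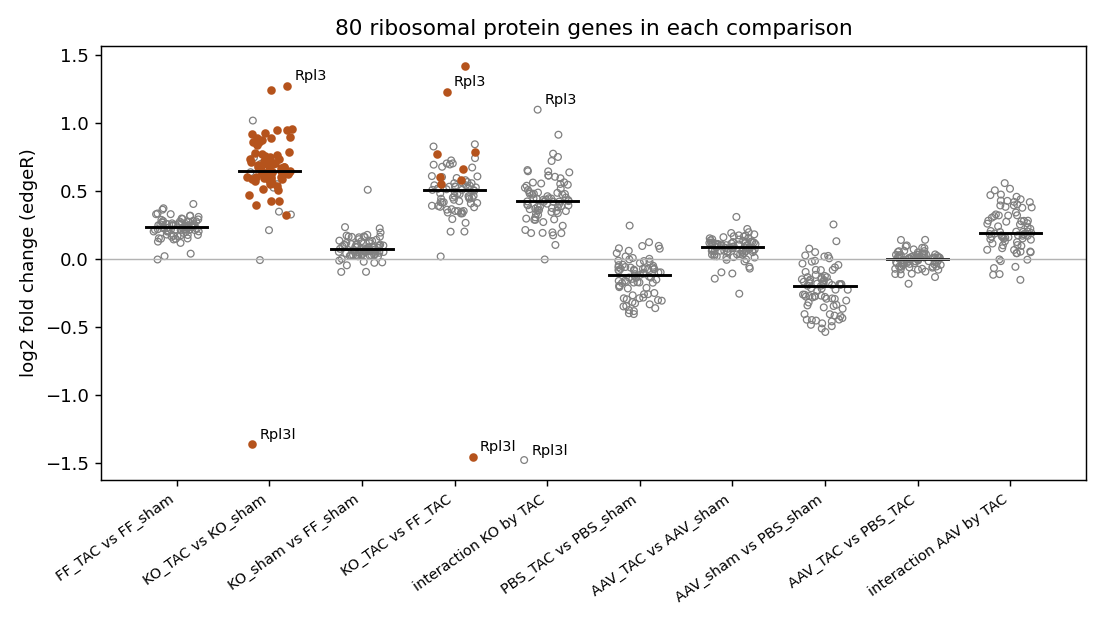
Log2 fold change (y axis) of each of the 80 genes (points) in each of the 10 comparisons (x axis), with filled points for those called at an adjusted p under 0.05 and a line at the median. Filled points occur in KO_TAC against KO_sham (69) and against FF_TAC (9). Rpl3l is the lowest point in both, and the highest is Rpl3 (1.27) in the first and Rps27a (1.42) in the second.

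No member was called by edgeR in the interaction of knockout with TAC, in which 0.0449% of all genes were called. At an unadjusted p under 0.05 there were 8 of 80, a smaller share than the 13.1% of all genes, and DESeq2 called 2 (Rpl3 and Rpl3l). The interaction was -1.48 for Rpl3l (SE 0.26, adjusted p = 0.0634) and 1.10 for Rpl3 (SE 0.27, adjusted p = 0.113) by edgeR's quasi-likelihood test. The third smallest p was that of Rpl10 (0.47, SE 0.19, adjusted p = 0.302 by edgeR). The median over the 80 was 0.42, with 78 above 0, against 52.7% of all genes tested. The 80 values come from the same libraries, so their signs are not independent. Without KO_TAC 2 the median over the 80 was 0.20. Among mRNAs up to 600 bases, the interaction median was 0.46 for members and 0.35 for other genes.

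In floxed controls, TAC gave no call among the 80 (0 of 15596 genes by edgeR, percent called 0, with 0 members and 11.1% of all genes at an unadjusted p under 0.05, and 0 called by DESeq2). The median was 0.23, or 0.12 without FF_TAC 2, and 79 of 80 were above 0, against 49.0% of all genes. Separated upward were 2 members (Rpl5 and Rpl39), with 2.74% of all genes so separated. Rpl7 had the smallest p, with 337, 325, 298 and 302 CPM in FF_sham and 335, 445, 374 and 327 CPM in FF_TAC. FF_TAC 2 and 3, both haemoglobin-low, were the high libraries, and the log2 fold change was 0.23 (SE 0.13, adjusted p = 0.513 by edgeR). Rps12 (0.33, SE 0.20), Rps4x (0.23, SE 0.14) and Rps6 (0.21, SE 0.14) were not called either. Rpl3 (0.18, SE 0.19) and Rpl3l (0.12, SE 0.18) were both near 0 here.

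For knockout without TAC, by edgeR 0 of 80 were called, as of all genes (0 percent), 0 at an unadjusted p under 0.05, against 5.22% of all genes, and 0 by DESeq2. The median was 0.07 (0.03 to 0.13 when each library was left out), and Rpl5 and Rps4x were separated upward, as were 3.23% of all genes. The largest value was that of Rps27a (0.51, SE 0.29, adjusted p = 1 by edgeR), whose FF_sham libraries were at 77.1, 69.9, 96.5 and 67.5 CPM and overlapped KO_sham. Rpl3 (0.13, SE 0.19), Rpl3l (0.02, SE 0.18), Rps4x (0.19, SE 0.14) and Rps6 (0.16, SE 0.14) did not pass either.

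In the AAV9 cohort no member was called by edgeR or DESeq2 in any of 5 comparisons. TAC in PBS mice gave a median of -0.12 (-0.24 to -0.03 when each library was left out, the ends without PBS_TAC 3 and PBS_TAC 1), with 0.0318% of all genes called. At an unadjusted p under 0.05 were 2 members (Rpl13a and Rps16), a smaller share than the 18.5% of all genes. The smallest p there was that of Rpl13a (-0.41, SE 0.16, adjusted p = 0.221 by edgeR), followed by Rps16 (-0.38, SE 0.18) and Rpl35a (-0.30, SE 0.15). For Rps16, PBS_sham was at 154, 157 and 251 CPM and PBS_TAC at 129, 138 and 164 CPM, which overlap, with PBS_sham 3 the highest. Rpl13a and Rpl22l1 were separated downward, as were 6.57% of all genes. With the vector, TAC gave a median of 0.09 (0.05 without AAV_TAC 4), with 0 members and 7.05% of all genes at an unadjusted p under 0.05 and 0.00635% of all genes called. Rpl3 was at 148, 175, 122 and 114 CPM in AAV_sham and 195, 175, 159 and 161 CPM in AAV_TAC, which overlap (0.31, SE 0.16, adjusted p = 0.765 by edgeR). Rpl37 (0.20, SE 0.11) had the next smallest p and was separated upward, as were 4.9% of all genes.

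The vector compared with PBS after sham gave a median of -0.20, or -0.46 with library totals alone. Below 0 were 72 of 80 and above 0 were 8, with 47.6% of all genes above 0. At an unadjusted p under 0.05 were 24 of 80, against 20.7% of all genes, none of them called (0.0127% of all genes were). Rps12 was at 109, 116 and 184 CPM in PBS_sham and 98.0, 106, 88.0 and 83.0 CPM in AAV_sham. The ranges were separate and PBS_sham 3 was the highest (-0.54, SE 0.18, adjusted p = 0.164 by edgeR). Rpl35a (-0.41, SE 0.14) and Rpl37 (-0.34, SE 0.12) were also separate, as were 15 members in all, with 5.32% of all genes. Without PBS_sham 1, which leaves PBS_sham 3 and 1 other control, 5 members were called, and without PBS_sham 3 none was. After TAC the vector gave a median of 0.00 (-0.07 to 0.12 when each library was left out), 0 members and 3.19% of all genes at an unadjusted p under 0.05, and 0.0381% of all genes called. Rpl39 (-0.18, SE 0.15), Rpl13a (0.14, SE 0.15) and Rps27rt (-0.11, SE 0.14) had the smallest p, and Rpl39 was separated downward, as were 4.27% of all genes. In the interaction of vector with TAC the median was 0.19 (0.11 without PBS_TAC 1 and 0.32 without PBS_TAC 3), and 0.00635% of all genes were called. An unadjusted p under 0.05 was found for 3 of the 80 and for 6.95% of all genes. The 3 were Rpl13a (0.56, SE 0.21), Rpl37 (0.39, SE 0.16) and Rpl26 (0.47, SE 0.22), with an adjusted p of 0.688 by edgeR in each case.

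The log2 ratio of Rpl3l to Rpl3 in this cohort was 1.07, 0.09 and -0.35 in PBS_sham and 0.52, 0.09 and 0.23 in PBS_TAC. It was 0.83, 0.54, 1.27 and 1.48 in AAV_sham and -0.05, 0.41, 0.68 and 0.73 in AAV_TAC. No library reached the KO_TAC range, and PBS_sham 3 was the lowest. TAC with the vector gave a difference of -0.59 (exact permutation p = 0.114) and TAC with PBS 0.01 (exact permutation p = 0.9, smallest possible 0.1). Vector against PBS gave 0.76 after sham (exact permutation p = 0.143) and 0.16 after TAC (exact permutation p = 0.486). The difference between the TAC effects was -0.60 (exact permutation of vector and PBS within surgery, p = 0.295).

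Other genes of the translation machinery were followed as lists in KO_TAC compared with KO_sham. Outside the name rule, Fau (0.72, SE 0.23), which yields Rps30, and Rack1 (0.49, SE 0.14), a scaffold on the small subunit, rose. Of 15 elongation factors and related mRNAs, 8 rose and 0 fell, with a median of 0.48. These included Eef1g (0.61, SE 0.15, adjusted p = 0.0116), Eef1a1 (0.77) and the nucleolar chaperone Npm1 (0.52, SE 0.14, adjusted p = 0.0144) by edgeR.

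Ribosome biogenesis genes make, fold and modify rRNA. Of 37, 20 rose and 1, the polymerase I subunit Polr1a, fell (-0.43, SE 0.12, adjusted p = 0.0218 by edgeR), with a median of 0.42. Nop58 went from 26.0 ± 3.84 (SD, n = 4) to 62.7 ± 10.4 CPM (SD, n = 4) and Nop56 from 30.8 ± 2.60 to 45.5 ± 5.18 CPM. Both are core proteins of the C/D snoRNPs, and their log2 fold changes were 1.27 (SE 0.26, adjusted p = 0.0045) and 0.56 (SE 0.12, adjusted p = 0.00539) by edgeR. Nhp2, of the H/ACA snoRNPs, rose by 1.34 (SE 0.30, adjusted p = 0.00786 by edgeR). Of 19 genes of the mTORC1 and S6 kinase arm, 4 rose and 1 fell, with a median of 0.00, against 14.3% of all genes tested called higher, 11.5% called lower and a median of 0.02. Those that rose were the mTORC1 inhibitors Ddit4 (1.14, SE 0.26) and Sesn2 (1.27, SE 0.31), Eif4ebp1 (0.92, SE 0.23) and Larp1 (0.40, SE 0.11), which binds pyrimidine-tract mRNAs. Eif4ebp2 fell (-0.70, SE 0.24). Against FF_TAC, 3 of the 15 elongation and related genes rose (Eef1a1, Npm1 and Pabpc1), as did 3 of the 37 biogenesis genes (Nop58, Taf1d and Fbl), the latter a share close to the 7.53% of all genes called higher there. Polr1a and, of the mTORC1 arm, Mtor fell in that comparison.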

How the data were processed

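RNA sequencing gave 30 libraries of mouse heart. Per the submitters' processing notes, the tools were HISAT2 2.1.0 and featureCounts of Subread 1.5.1 with GRCm38, and the deposited values are whole-number counts of reads per gene. Treatment of multi-mapping reads and strand is not given in the sources used here. The members and gene lists were chosen with earlier results of these data known. Each cohort was fitted apart with edgeR 4.0.16 (R 4.3.3): TMM scaling, filterByExpr, 1 mean per group, quasi-likelihood test, and Benjamini-Hochberg adjustment over all genes, called under 0.05. Levels are TMM-scaled CPM, except that levels of cell type markers (summed or single), means set against the 5 CPM limit and levels per kb are unscaled CPM. The Rpl3l to Rpl3 ratio used exact permutation tests (two-sided). Named genes were Rpl3, Rpl3l, Rps6 and paralog pairs, the 5 largest called changes in each direction whose libraries did not overlap (or the 3 smallest p), the 3 highest and lowest per kb, and the 3 smallest p of other lists. Others, such as Rps2, Rplp0 and Polr1a, were chosen after their values were seen. DESeq2 1.42.0, other scalings, no filter, replicate numbers as a block and left-out libraries were alternatives. Totals of 14839758 to 22070373 counts set the precision. On simulated data, edgeR recovered 77% of genes changed 2-fold in KO_TAC against KO_sham. The simulation gave all genes and libraries the same spread and changed few genes. It therefore does not measure recovery in these less even libraries. Some named-gene results are not reported here.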

Additional observations from a re-analysis of the deposited data

Results flagged for a closer look

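Rpl3 in FF_sham 4 was at 127.3 CPM, apart from the other 3 libraries of its group at 164.7 to 168.8 CPM. Its gap to the nearest library was 0.90 of the group's range. Chance marks about 1 in 20 groups in this way, and 30 such tests were made, each of 1 value in 1 group of 4 libraries.

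The TAC effect on the log2 ratio of Rpl3l to Rpl3 differed between knockout and floxed mice by -2.57 (exact permutation within surgery, p = 0.02), a test added after the ratio had been seen. The relabelling assumes no genotype effect under either surgery, so its p does not belong to the interaction alone.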

How the results depend on the processing

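For KO_TAC against KO_sham, 69 members were called, and leaving out each library in turn gave 13 to 78. The count was 2 with a haemoglobin-low term and 31 without haemoglobin-low libraries outside KO_TAC, a setting chosen after seeing the data. For KO_TAC against FF_TAC the count of 9 became 31 with DESeq2, 55 with library totals alone, 4 with the haemoglobin-low term, 0 with haemoglobin-low libraries alone, 23 without those outside KO_TAC, and 4 to 67 when leaving out each library. The interaction count of 0 became 2 with DESeq2, 1 with no filter, 2 without haemoglobin-low libraries outside KO_TAC, and 0 to 2 when leaving out each library. AAV_sham against PBS_sham ran from 0 to 5, the 5 without PBS_sham 1. The causes were not tested.

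Samples with the same replicate number did not deviate together in every pair of any comparison: r ran from -0.441 to 0.246 for KO_TAC against KO_sham and was 0.464, 0.324, 0.135 and -0.0341 for KO_TAC against FF_TAC, where 3 of the 4 pairs lay above 0.1. With the replicate number as a block, 66 and 12 members were called against KO_sham and FF_TAC. The ratio differences were -2.62 and -2.68 with an exact sign-flip permutation p of 0.125, the smallest that 4 pairs allow.

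Leaving out each library, the ratio difference ran from -0.17 to 0.10 for FF_TAC against FF_sham, -0.23 to 0.0404 for KO_sham against FF_sham, -0.30 to 0.41 for PBS_TAC against PBS_sham and -0.75 to -0.42 for AAV_TAC against AAV_sham (exact permutation p = 0.0286 without AAV_sham 2). It was 0.25 for FF_TAC against FF_sham without haemoglobin-low libraries, and -2.38 for KO_TAC against FF_TAC with those alone (exact permutation p = 0.0667, the smallest possible).

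Named genes that changed sign, all uncalled, are given as log2 fold changes. Without haemoglobin-low libraries, Rpl3 was at -0.0226 in FF_TAC against FF_sham. With Myl7 as a covariate, Rpl3 was at 0.0381 in PBS_TAC against PBS_sham. Rps6 was at 0.00924 with library totals alone and 0.00797 with no filter in AAV_TAC against AAV_sham, and Rpl3l at 0.00418 in the AAV9 interaction with library totals alone. Leaving out each library, the ranges were as follows. In KO_sham against FF_sham, Rpl3l ran from -0.0683 to 0.0846. In PBS_TAC against PBS_sham, Rpl3 ran from -0.190 to 0.0617, Rpl3l from -0.272 to 0.217 and Rps6 from -0.181 to 0.0202. In AAV_TAC against AAV_sham, Rps6 ran from -0.0383 to 0.0398. In AAV_sham against PBS_sham, Rps6 ran from -0.174 to 0.0106. In AAV_TAC against PBS_TAC, Rpl3 ran from -0.178 to 0.00326, Rps6 from -0.0851 to 0.0977 and Rps27rt from -0.200 to 0.0525. In the AAV9 interaction, Rpl3l ran from -0.473 to 0.0156 and Rps6 from -0.0267 to 0.174. Library totals moved the median of all genes by over 0.1 in 3 AAV9 comparisons (-0.21 in PBS_TAC against PBS_sham, -0.27 in AAV_sham against PBS_sham and 0.21 in the interaction).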
